A study of Mus musculus with 12 samples.

Results

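The let-7 family is a group of miRNAs that share a seed, the stretch near the 5′ end of a mature miRNA that pairs with its target mRNAs. Its members here were chosen by name, as the mouse let-7 assays of a TaqMan low-density array (TLDA), and there were 8 of them (listed as mmu-let-7a, mmu-let-7b, mmu-let-7c, mmu-let-7d, mmu-let-7e, mmu-let-7f, mmu-let-7g and mmu-let-7i, written let-7a and so on below) among 375 miRNA assays, 335 for mouse and 40 for rat miRNAs. RNA came from primary pulmonary endothelial cells of male wild type C57BL/6N mice aged 6 to 10 weeks, isolated from pooled lungs of 3 mice with magnetic beads against CD144 and then CD31. Cells were left unstimulated (control) or received Tri-DAP, a ligand of the receptor NOD1, or MDP, a ligand of NOD2, each at 10 μg/mL for 6 hours. Each group held 4 arrays, 12 in all, and every array is named below by its group and the number that its label carries (control 4, 7, 10 and 13, Tri-DAP 5, 8, 11 and 14, MDP 6, 9, 12 and 15). The cells came from 4 independent isolations, but neither the labels nor the methods say which arrays share one, so the comparisons were made without pairing, and both stimulations are compared with the same 4 control arrays.

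In the cell, let-7 precursors are cut by Drosha and Dicer, and the protein LIN28 blocks this maturation in stem cells and embryonic tissue, so that mature let-7 rises as cells differentiate. The mature forms repress mRNAs such as those of the Ras proteins, of the chromatin protein HMGA2 and of LIN28 itself, and let-7 also has a site in the mRNA of the cytokine interleukin-6. NOD1 and NOD2 are cytosolic sensors of fragments of the bacterial cell wall that activate NF-κB.

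The mature sequences are shown because the assays differ from each other by as little as 1 base while the seed is the same in all. They were taken from RefSeq (mouse, GRCm38.p6), are written 5′ to 3′, and carry the seed, bases 2 to 8, in capitals. The assay names give no arm, and the 5p arm was taken. All 8 members matched an entry of 22 bases and had the seed GAGGUAG.
let-7a: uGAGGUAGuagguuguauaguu
let-7b: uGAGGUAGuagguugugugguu
let-7c: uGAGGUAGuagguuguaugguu
let-7d: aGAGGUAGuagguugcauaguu
let-7e: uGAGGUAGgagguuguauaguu
let-7f: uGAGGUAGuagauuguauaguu
let-7g: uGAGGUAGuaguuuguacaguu
let-7i: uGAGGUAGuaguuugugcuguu
Among the other assays of the card, miR-98 had the same seed, and miR-202-3p shared bases 2 to 7 but not base 8.
miR-98: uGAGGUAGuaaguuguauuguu
miR-202-3p: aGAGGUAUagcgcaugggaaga
With positions counted from 1 at the 5′ end and the base of the first-named member first, 4 of the 28 pairs of members differed at 1 base. These were let-7a and let-7c (A19G), let-7a and let-7e (U9G), let-7a and let-7f (G12A), and let-7b and let-7c (G17A). Whether an assay also reads a near-identical member was not tested, so the split of signal within these pairs is uncertain.

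The genes of the members lie in several clusters. On chromosome 13 the mature let-7a of Mirlet7a-1 (chr13:48538239-48538260, minus strand), let-7f of Mirlet7f-1 (chr13:48537889-48537910, minus strand) and let-7d of Mirlet7d (chr13:48536078-48536099, minus strand) lie next to each other. Mirlet7c-2 (chr15:85706616-85706637, plus strand) and Mirlet7b (chr15:85707325-85707346, plus strand) lie within the span of the non-coding gene Lncppara, 621 bases apart. Mirlet7e (chr17:17830366-17830387, plus strand) lies within Spaca6, 94 bases from Mir99b and 367 bases from Mir125a. The second let-7f gene, Mirlet7f-2 (chrX:151912353-151912374, plus strand), lies 785 bases from Mir98 within Huwe1, the second let-7c gene, Mirlet7c-1 (chr16:77599672-77599693, plus strand), lies 656 bases from Mir99a, and Mirlet7a-2 lies on chromosome 9 within Mir100hg beside Mir100. Mirlet7g (chr9:106178846-106178867, plus strand, within Wdr82) and Mirlet7i (chr10:122985698-122985719, minus strand) have no other gene of these lists close by. Because the table holds only gene spans, exon and intron were not assigned, and a TLDA reads mature let-7a, let-7c and let-7f without telling their gene copies apart.

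The arrays report for each assay the PCR cycle at which fluorescence crosses a threshold (Ct), which is lower the more RNA there is, 1 cycle being nominally a factor of 2. Over all arrays, 231 to 254 miRNAs were measured per array and 174 on every array. The endothelial miR-126-3p was read at Ct 18.6 to 20.6 on the 12 arrays. Markers of mural cells and fibroblasts (miR-143, miR-145 and miR-214) were also measured on every array, 3 of 3, and miR-145 ranged from Ct 23.1 to 33.1. Their summed level, on the log2 scale relative to the array mean, varied between arrays within each group. It ran from -0.07 to 6.18 in control cells, from 0.26 to 6.17 with Tri-DAP and from 0.78 to 5.99 with MDP. Arrays of consecutive numbers lay close together. The Ct of miR-145 was 29.9, 29.3 and 30.3 on control 4, Tri-DAP 5 and MDP 6. It was 33.1, 31.8 and 32.5 on control 7, Tri-DAP 8 and MDP 9, and 27.3, 27.0 and 28.0 on control 10, Tri-DAP 11 and MDP 12. On control 13, Tri-DAP 14 and MDP 15 it was 23.1, 23.4 and 23.5. Of the epithelial markers 2 of 6 were measured on every array and the others on 10 or 11 arrays. miR-200b was read at Ct 25.6 to 33.1. Of the muscle markers 0 of 4 were measured on every array. miR-1 was measured on 8 arrays (Ct 27.7 to 34.3), miR-133a on 6, miR-208 on 3 and miR-499 on 1. Of the leukocyte and blood markers 2 of 5 were measured on every array, and miR-142-3p on 9 arrays (Ct 32.5 to 36.6). The leukocyte miR-142-5p and the erythroid miR-451 were undetermined on most arrays, and miR-223 (Ct 29.9 to 32.0) and miR-150 (29.1 to 30.5) were measured on all of them. The part of other cell types in the let-7 levels was not tested, and in bulk RNA fewer cells of a type and less RNA per cell cannot be told apart. The reference U6 had a mean Ct of 19.6 ± 0.36 (SD, n = 4) in control cells, 19.5 ± 1.51 in cells given Tri-DAP and 19.7 ± 0.67 in those given MDP. Its latest mean, 21.6, was on Tri-DAP 8 and its earliest, 18.3, on Tri-DAP 14. The 4 U6 wells of an array also differed, with an SD from 0.11 cycles on Tri-DAP 8 to 2.05 on MDP 12. On Tri-DAP 14 they ran from Ct 15.95 to 20.35 (SD 1.93). How much of the U6 differences between arrays comes from single wells was not tested. The other small reference RNAs of the card were used only in an alternative reference.

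All 8 let-7 members were measured on all 12 arrays, with 96 of 96 wells between Ct 24.0 and 29.7. The members fell into 2 separate levels of Ct. let-7e (mean Ct over the 12 arrays 24.6), let-7i (24.7), let-7g (24.8), let-7c (25.1) and let-7b (25.2) were read between Ct 24.0 and 25.8, and let-7d (27.2), let-7f (27.9) and let-7a (28.3) between Ct 26.7 and 29.7. On no array did the levels overlap, and the narrowest gap between them on an array was 1.18 cycles. The 3 later members are those with a gene in the cluster on chromosome 13, of which let-7a and let-7f also have a gene elsewhere. Assays differ in efficiency, so the order between members describes the Ct and not the number of molecules.

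Within the earlier level the order was not fixed. let-7i had the lowest Ct of the family on 5 arrays, let-7e on 4, let-7g on 2 and let-7b on 1, and the means of let-7e, let-7i and let-7g lay closer together than their spread within groups. In the later level let-7a had the highest Ct on 7 arrays, let-7f on 4 and let-7d on 1. The means of let-7b and let-7c, and those of let-7f and let-7a, also differed by less than the within-group spread, whereas let-7b and let-7d, the neighbours across the gap, differed by more. Among the 174 miRNAs measured on every array, let-7e held rank 18 by mean Ct, let-7i rank 19 and let-7g rank 21, while let-7d held rank 50, let-7f rank 65 and let-7a rank 73.

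**Figure D1:**
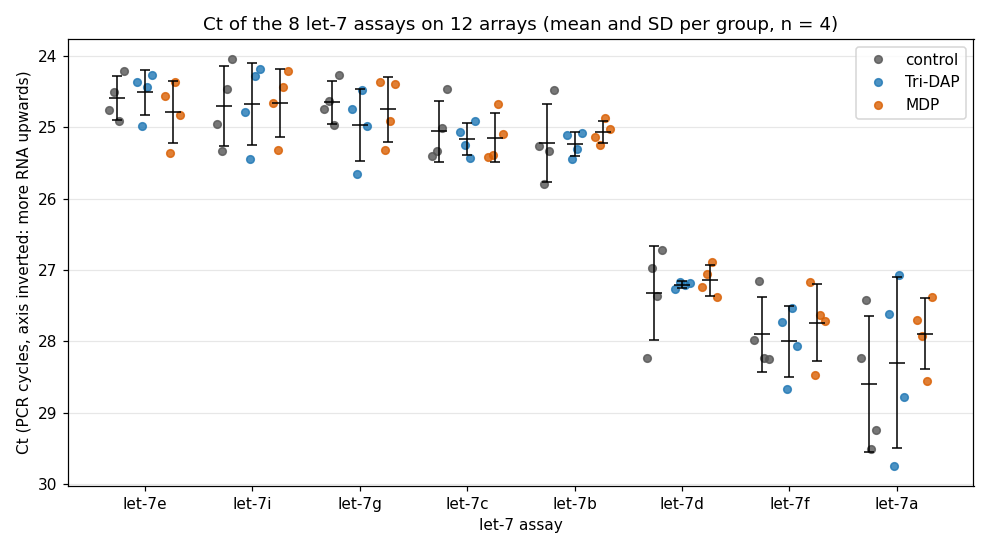
Ct in PCR cycles of each let-7 assay on the 12 arrays, 4 each for control, Tri-DAP and MDP, with the axis inverted so that more RNA is higher; points are arrays, and bars are the mean and SD of a group. let-7e, i, g, c and b lie between Ct 24.0 and 25.8, let-7d, f and a between 26.7 and 29.7, and within every member the 3 groups overlap.

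Before normalization, members differed in how much they varied between arrays of a group. The within-group SD of the Ct, pooled over the 3 groups, had a median of 0.416 cycles over the members, compared with 0.777 over all 174 miRNAs, which include assays of later Ct. It was lowest for let-7c (0.342) and let-7b (0.343) and highest for let-7a (0.931). Of the 20 other miRNAs within 1 cycle of the mean Ct of let-7c, 0 had a smaller SD. The count was 1 of 22 for let-7b, 2 of 19 for let-7e, 3 of 33 for let-7d, 7 of 18 for let-7g, 13 of 42 for let-7f, 11 of 19 for let-7i and 28 of 44 for let-7a, so let-7i and let-7a were not steadier in Ct than most miRNAs of similar level. let-7d after Tri-DAP was the tightest, at Ct 27.3, 27.2, 27.2 and 27.2 on Tri-DAP 5, 8, 11 and 14. After subtraction of U6 the median SD of the members was 0.897 on the log2 scale, beside 1.003 for all 174 miRNAs, and the lowest and highest levels of the family mean were those of Tri-DAP 14 and Tri-DAP 8, at -7.65 and -4.94 relative to U6. These are the arrays with the earliest and the latest mean U6.

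Because the mean U6 Ct differed this much between the Tri-DAP arrays, levels were also expressed relative to the mean of the 174 miRNAs measured on every array. On that scale the median within-group SD of the members was 0.427, compared with 0.690 over all 174 miRNAs. let-7i was the steadiest member, with a within-group SD of 0.176 and 0 of 19 neighbours in Ct with a smaller one. The count on this scale was 4 of 18 for let-7g, 6 of 19 for let-7e, 17 of 42 for let-7f, 9 of 22 for let-7b, 11 of 20 for let-7c, 30 of 44 for let-7a and 23 of 33 for let-7d, so let-7c, let-7a and let-7d varied more than most of their neighbours. The log2 level of let-7i relative to the array mean was 3.77, 3.68, 4.21 and 4.17 on control 4, 7, 10 and 13, 4.04, 4.24, 3.999 and 4.12 on Tri-DAP 5, 8, 11 and 14, and 3.96, 4.02, 4.06 and 4.155 on MDP 6, 9, 12 and 15. The stimulated arrays all fell within the range of the control arrays apart from Tri-DAP 8, which lay just above it.

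**Figure D2:**
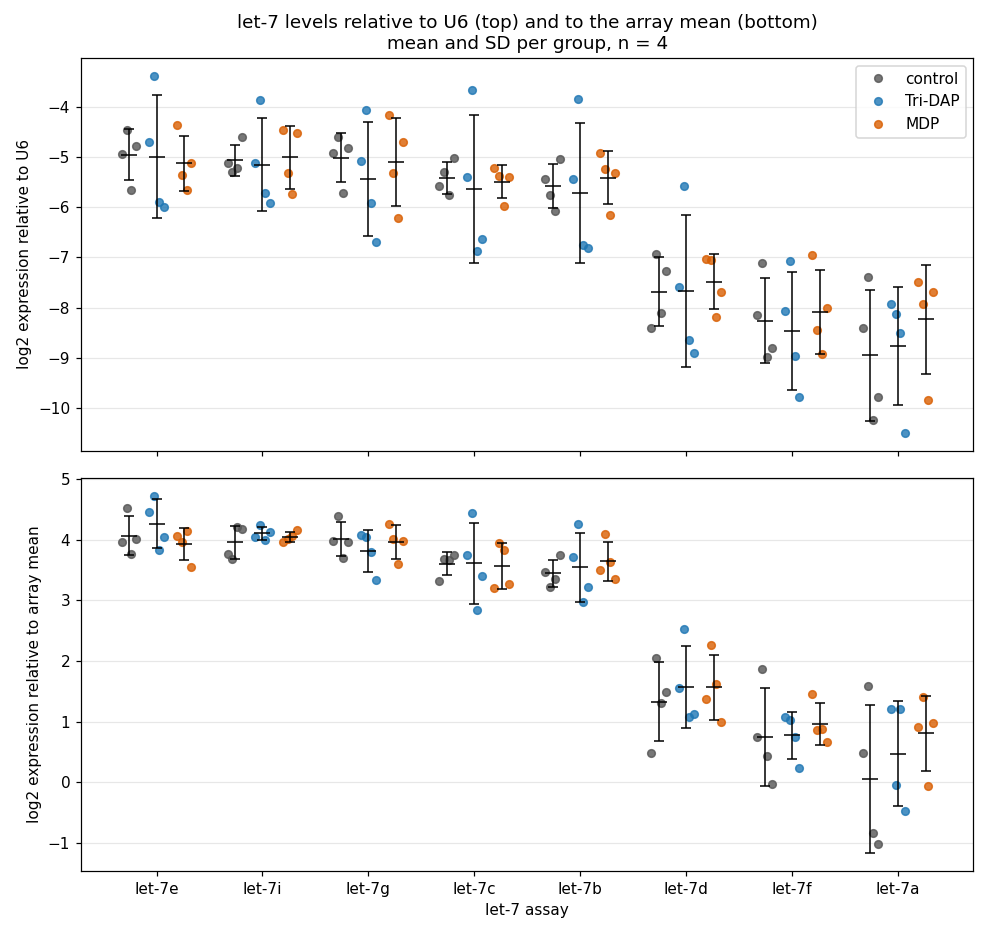
log2 expression of each let-7 member relative to U6 (top) and relative to the mean of the 174 miRNAs measured on every array (bottom), for 4 arrays per group; points are arrays, and bars are the mean and SD. The wide Tri-DAP bars of the top panel (let-7c, SD 1.48) narrow in the bottom panel (0.67), and let-7a keeps the widest bars of the bottom panel.

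In response to NOD1 stimulation, none of the 8 let-7 members passed the test against control. Tri-DAP was compared with control by limma on the log2 scale relative to U6, with a miRNA called at an unadjusted p under 0.05, and 0 of 8 members were called, beside 1.69% of the 237 miRNAs tested (4 miRNAs, all lower). The members' log2 fold changes ran from -0.43 (let-7g) to 0.18 (let-7a), with a median of -0.11 compared with -0.24 over all miRNAs tested, and 6 of 8 were below 0, compared with 75.1% of all. No member's means were more than 2-fold apart, compared with 19.8% of all miRNAs tested, which include assays of later Ct and assays not measured on every array. Unadjusted limma p-values of the members were 0.536 or higher, and every adjusted p was 0.998.

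let-7g had the largest of these differences. Its log2 level relative to U6 was -4.92, -4.59, -5.72 and -4.82 on control 4, 7, 10 and 13 and -5.07, -4.06, -5.92 and -6.70 on Tri-DAP 5, 8, 11 and 14. Tri-DAP 8 was the highest and Tri-DAP 14 the lowest of all 8 arrays, and the groups overlapped. The log2 fold change was -0.43 (SE 0.67, 95% interval -1.88 to 1.03), and the two-sided exact permutation p was 0.514. It was -0.89 without Tri-DAP 8, -0.66 without control 10, -0.27 without Tri-DAP 11, -0.29 without control 7 and -0.0061 without Tri-DAP 14, and over the omission of each array the median of the members ran from -0.69 without Tri-DAP 8 to 0.23 without Tri-DAP 14. With all arrays and relative to the array mean, let-7g was at -0.19 (SE 0.29, interval -0.83 to 0.44). A change to that reference moved the median of all miRNAs tested from -0.24 to 0.01, and the median of the members from -0.11 to 0.12, and 1 of 8 members was then below 0. Without Tri-DAP 8 and 14, which had the latest and the earliest mean U6, the median of the members relative to U6 was -0.40. Tri-DAP 11, which was kept, had a mean U6 Ct of 18.6, close to the 18.3 of Tri-DAP 14. With both arrays left out, 7 of 8 members were below 0 and 0 were called. The log2 fold change was then -0.72 for let-7c and 0.73 for let-7a.

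NOD2 stimulation also gave no member past the threshold. For MDP against control, 0 of 8 members were called, beside 1.23% of the 244 miRNAs tested (3 miRNAs). The log2 fold changes relative to U6 ran from -0.17 (let-7e) to 0.72 (let-7a), with a median of 0.11 compared with -0.02 over all miRNAs tested, and 3 of 8 were below 0, compared with 54.1% of all. None was more than 2-fold apart, compared with 16.4% of all, which again include assays of later Ct, and every adjusted p from limma was 0.9997.

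let-7a had the largest difference of any member in the 3 comparisons. A heat map of the study shows this miRNA among those ranked by p-value for MDP on these same arrays, so its value is not independent evidence. The study's text does not name it. Its Ct was 28.2, 27.4, 29.5 and 29.2 on control 4, 7, 10 and 13, 27.6, 29.7, 27.1 and 28.8 on Tri-DAP 5, 8, 11 and 14, and 27.7, 27.9, 28.6 and 27.4 on MDP 6, 9, 12 and 15. Control 10, control 13 and Tri-DAP 8 were the latest, and control 7 was as early as the earliest MDP array. Relative to U6, its log2 level was -8.40, -7.38, -10.25 and -9.79 on the control arrays and -7.49, -7.92, -9.85 and -7.68 on the MDP arrays, so that 3 of 4 MDP arrays lay above the control mean while the highest value belonged to control 7. The log2 fold change of MDP over control was 0.72 (SE 0.83, 95% interval -1.07 to 2.50), or 1.65-fold with an interval from 0.477 to 5.67. Limma gave an unadjusted p of 0.401, and the two-sided exact permutation p was 0.4, where 4 arrays against 4 cannot go below 0.029. The log2 fold change was 0.75 relative to the array mean (SE 0.64, interval -0.64 to 2.15) and 0.70 without normalization. With the median of the U6 wells as reference, a setting chosen after seeing the data, it was 0.965. The value relative to U6 depended on single arrays. Leaving out 1 of the arrays compared gave 0.29 without control 10, 0.44 without control 13, 0.47 without MDP 6, 1.24 without control 7 and 1.26 without MDP 12, the lowest and the highest having an unadjusted limma p of 0.750 and 0.155.

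The level of let-7a also varied against the rest of the family. Its Ct minus the mean Ct of the other 7 members was 2.33, 1.75, 3.75 and 4.03 on the control arrays, 2.03, 3.65, 1.54 and 3.26 on the Tri-DAP arrays and 2.20, 1.91, 3.16 and 1.86 on the MDP arrays. The distance was largest on control 13 and below 2 cycles on control 7, Tri-DAP 11, MDP 9 and MDP 15, so arrays of all 3 groups lay at the near end.

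MDP was compared with Tri-DAP directly as well. 0 of 8 members were called, beside 2.9% of the 241 miRNAs tested (7 miRNAs, all higher after MDP). The log2 fold changes of MDP over Tri-DAP relative to U6 ran from -0.14 (let-7e) to 0.53 (let-7a), with a median of 0.24 compared with 0.18 over all, and 1 of 8 was below 0, compared with 25.3% of all. Relative to the array mean the median of the members was 0.05, and 4 of 8 were below 0. Without Tri-DAP 8 and 14 the median relative to U6 was 0.42 and 0 members were called. The largest difference relative to the array mean over all 12 arrays was -0.34 for let-7e (SE 0.30, interval -1.004 to 0.33), with an unadjusted limma p of 0.290.

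Over the 3 comparisons and 8 members, that is 24 tests, the groups overlapped each time on both scales. Of the 174 miRNAs measured on every array, 0% had groups without overlap relative to U6 in each comparison, and relative to the array mean this share was 0.575% for Tri-DAP against control and 0% for the other comparisons. Two-sided exact permutation p-values of the members relative to U6 ran from 0.4 to 1. The intervals, from the fit without pairing, say how large a change these arrays could have missed. Any spread between isolations is part of them. Relative to U6, the 95% intervals of the 24 fold changes together reached from 0.272-fold to 5.67-fold. Relative to the array mean, those of the 7 members other than let-7a reached from 0.498-fold to 2.35-fold. For let-7i on that scale, the log2 difference from control was 0.14 after Tri-DAP (interval -0.39 to 0.68) and 0.09 after MDP (interval -0.45 to 0.63). A p that misses the threshold does not show that a level was the same.

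**Figure D3:**
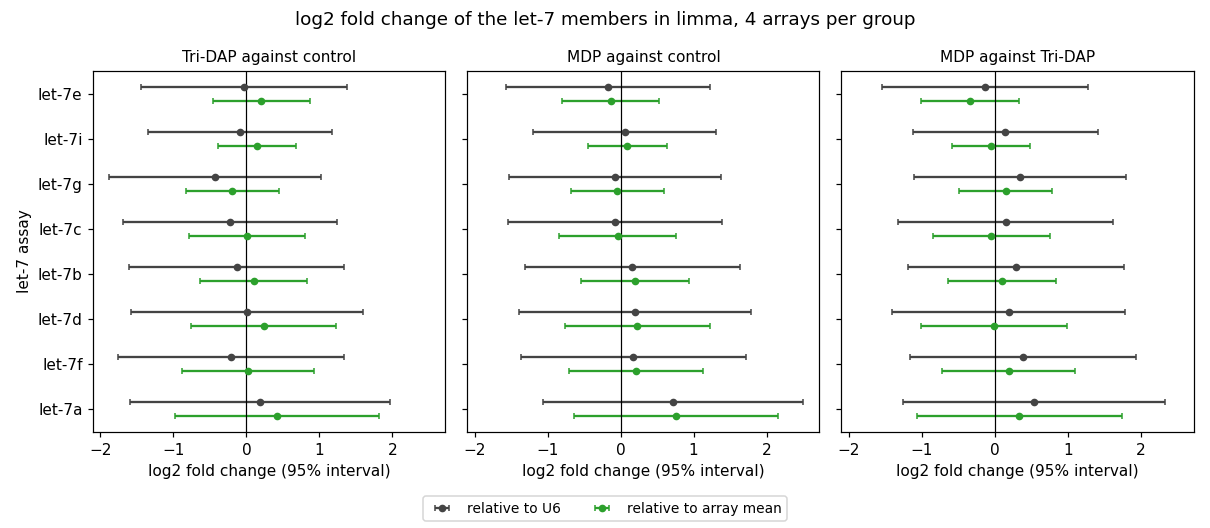
log2 fold change of each let-7 member in limma for Tri-DAP and for MDP against control and for the 2 ligands against each other (MDP over Tri-DAP), relative to U6 (grey) and to the array mean (green); points are estimates from 4 arrays per group, and bars are 95% intervals. Every interval includes 0, and the green intervals are narrower than the grey.

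The members did not all vary together across arrays. Relative to U6, Pearson's r over the 12 arrays lay between 0.41 and 0.96 for the 28 pairs of members, with a median of 0.84. These values share the U6 reading of each array. Relative to the array mean, r lay between -0.64 and 0.85 with a median of 0.33, and 6 of 28 pairs were below 0. On that scale let-7b and let-7c had an r of 0.85, let-7c and let-7d of 0.80, let-7a and let-7f of 0.74, and let-7f and let-7g of 0.71. By contrast, let-7i had an r of -0.62 with let-7a and -0.64 with let-7f. Values on this scale share the mean of each array. In Ct without normalization, let-7i had an r of -0.0021 with let-7a and 0.15 with let-7f, and relative to U6 of 0.44 and 0.70. These r are descriptions over 12 arrays of 3 groups.

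**Figure D4:**
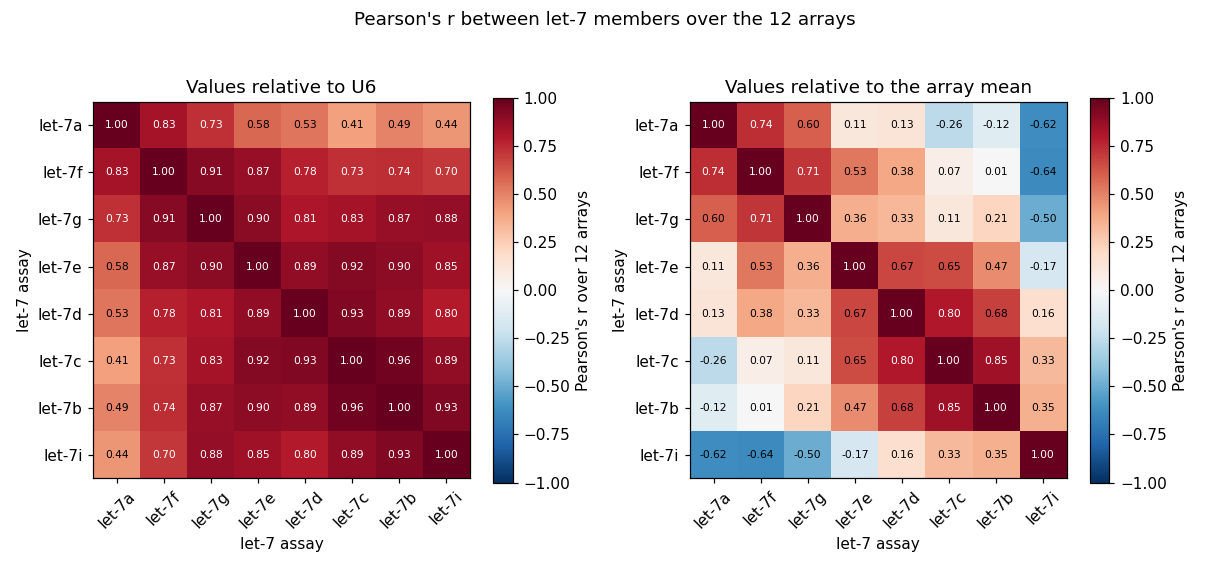
Pearson's r over the 12 arrays between each pair of let-7 members, for log2 levels relative to U6 (left) and relative to the array mean (right), on a colour scale from -1 to 1. Relative to U6 all 28 pairs lie between 0.41 and 0.96, and relative to the array mean between -0.64 and 0.85. The order is let-7a, f, g, e, d, c, b and i, with let-7a, f and g in one corner and let-7i at the other end. let-7b, c, d and e lie between them. Relative to the array mean let-7i has r from -0.64 (let-7f) to 0.35 (let-7b).

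The number of bases by which members differ did not strictly order these values. The 4 pairs that differ at 1 base had r from -0.26 (let-7a and let-7c) to 0.85 (let-7b and let-7c) relative to the array mean, and the 8 pairs that differ at 3 bases had r from 0.01 to 0.80. The median r was 0.42 for 1 base, 0.33 for 2, 0.37 for 3 and 0.27 for 4. It was -0.17 for the 1 pair at 5 bases and 0.16 for the 1 pair at 6. Position gave no single order either. let-7b and let-7c of the chromosome 15 cluster were alike (r = 0.85), and so were let-7a and let-7f of the chromosome 13 cluster (0.74), but let-7d of that cluster had an r of 0.13 with let-7a and 0.38 with let-7f.

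**Figure D5:**
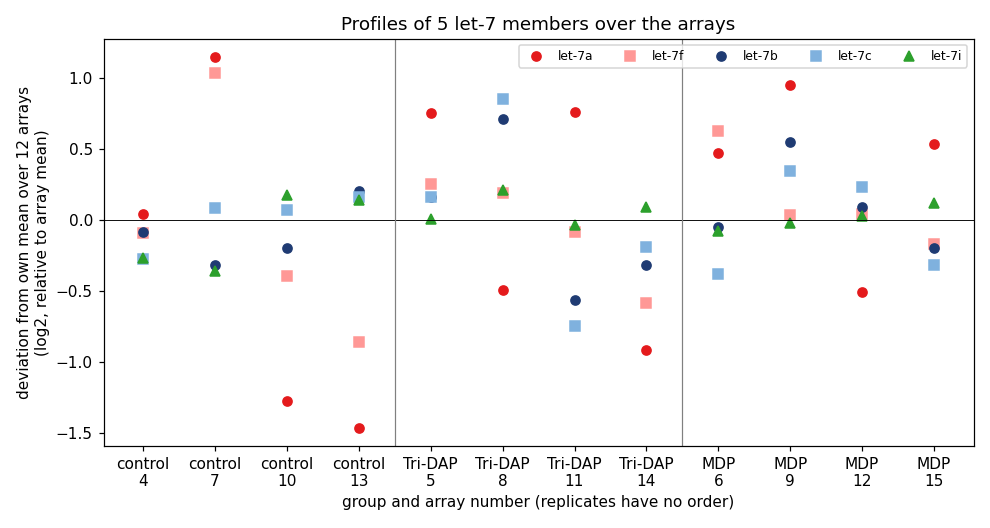
log2 level relative to the array mean of let-7a, f, b, c and i on each of the 12 arrays, as the deviation from the member's own mean over all arrays; vertical lines part the 3 groups. let-7a spreads widest, from 1.60 on control 7 to -1.02 on control 13 before its mean is subtracted, and let-7i stays nearest to 0.

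The neighbours of let-7 genes on the chromosome were also on the card. miR-99b and miR-125a-5p, whose genes flank Mirlet7e, had mean Ct values of 24.9 and 25.2 beside 24.6 for let-7e, and their r with let-7e relative to the array mean was 0.78 and 0.65. miR-99a (mean Ct 26.9), beside Mirlet7c-1, had an r of 0.32 with let-7c. miR-98 (30.6), beside Mirlet7f-2, had an r of 0.41 with let-7f, and miR-100 (26.9), beside Mirlet7a-2, an r of -0.45 with let-7a. miR-125b-5p (23.8) has a gene 45114 bases from Mirlet7a-2 and another 46522 bases from Mirlet7c-1. Its r on that scale was 0.49 with let-7a and 0.38 with let-7c. Of the 7 mature miRNAs from these clusters other than let-7 (miR-99a, miR-99b, miR-100, both arms of miR-125a and both of miR-125b), 0 were called against control, beside 1.69% of all miRNAs tested for Tri-DAP and 1.23% for MDP. Their log2 fold changes relative to U6 ran from -1.26 (miR-125b-3p) to -0.10 (miR-99b) after Tri-DAP and from -0.76 (miR-125b-3p) to 0.00 (miR-125b-5p) after MDP, all 7 below 0 in both comparisons, which share the control arrays, where 75.1% and 54.1% of all miRNAs tested were below 0. Relative to the array mean these values ran from -1.03 to 0.13 after Tri-DAP and from -0.73 to 0.03 after MDP, so the sign was not the same for all 7.

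The 2 assays related by seed were not called either. miR-98 was read at Ct 30.8 ± 0.78 (SD, n = 4) in control cells, 30.5 ± 0.36 after Tri-DAP and 30.6 ± 0.34 after MDP, and its log2 fold change relative to U6 was 0.15 (SE 0.82) and 0.14 (SE 0.82) against control. miR-202-3p was near the end of the measured range, at a mean Ct of 34.7 in control cells, 35.01 after Tri-DAP and 34.1 after MDP. Its log2 fold change after MDP was 0.62 (SE 0.85), and MDP 15 stood apart at Ct 32.0.

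Among the other 166 miRNAs measured on every array, the profiles most like the mean of the 8 members relative to U6 were those of miR-744 (Pearson's r = 0.98 over 12 arrays), miR-191 (0.97), miR-222 (0.97), miR-155 (0.96) and miR-26a (0.96). The median r of all 166 was 0.712, since every value carries the U6 reading of its array. Relative to the array mean the nearest were miR-365 (0.92), miR-24 (0.89), miR-331-3p (0.85), miR-191 (0.81) and miR-328 (0.80), with a median of 0.160. miR-191 stood among the first 5 on both scales.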

How the data were processed

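RNA of 12 samples of pulmonary endothelial cells was reverse-transcribed (350 ng) and run on TLDAs of 384 wells for 40 cycles, according to the methods. The authors deposited Ct values in cycles (40 where no threshold was reached) and normalized values, which are Ct minus the mean of 4 U6 wells and so lie on a log2 scale. This was checked on every well (largest difference 5.33e-15). A deposited fold change between group means was not used, nor were 12 unnamed columns. How wells were filtered before deposit is not given in the sources used here.

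The sign of the normalized values was turned, and wells at 40 were set missing. A miRNA was tested with at least 2 measured values in each group. All 12 arrays entered 1 fit without a block (lmFit and eBayes, limma 3.58.1, R 4.3.3), and p-values were adjusted over all miRNAs tested by Benjamini-Hochberg. The fit was tested on simulated data. Members were also tested by two-sided exact permutation (scipy 1.17.1). The number of arrays limits the precision. Where isolations are not tied to arrays, p-values measure the spread between arrays.

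Named were the 8 let-7 assays, the assays related by seed, the cluster neighbours, the reference RNAs, and the 5 miRNAs of the most similar profile. Profiles relative to the array mean and pairs of members were chosen later. The members and lists were chosen with earlier results of these data known. Alternatives changed the reference, the handling of undetermined wells, the latest Ct allowed (35), the number of measured values and the groups fitted. They also changed the test (among them a Student t-test, where the study used limma for its arrays) and the arrays included. Sequences and positions are from RefSeq (GRCm38.p6).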

Additional observations from a re-analysis of the deposited data

How the results depend on the processing

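Under 24 alternative settings, 0 of 8 let-7 members were called in any comparison. The lowest unadjusted limma p was 0.1003 for Tri-DAP against control (let-7c, -0.89 without Tri-DAP 8), 0.155 for MDP against control (let-7a, 1.26 without MDP 12) and 0.110 for MDP against Tri-DAP (let-7b, 0.92 without Tri-DAP 8). Over all miRNAs tested, the number called ran from 1 to 12, 0 to 7 and 0 to 17 in these comparisons. Of 192 member values per comparison, 32, 17 and 21 changed sign, and the cause was not tested.

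For Tri-DAP against control, the changed signs were let-7e 0.024 with U6 and snoRNA202 as reference; let-7b 0.10, let-7c 0.0070, let-7e 0.20, let-7f 0.020 and let-7i 0.14 with the array mean; let-7e 0.0815 and let-7i 0.0265 without normalization; and let-7d -0.10 with the median of the U6 wells and -0.44 without Tri-DAP 8 and 14. For MDP against control, the median of the U6 wells gave let-7c 0.17, let-7e 0.075 and let-7g 0.17. For MDP against Tri-DAP, the array mean gave let-7c -0.049, let-7d -0.0069 and let-7i -0.053, the median of the U6 wells let-7e 0.22, and leaving out Tri-DAP 8 and 14 let-7a -0.014 and let-7e 0.17. The median of the U6 wells, the omission of both Tri-DAP arrays and the block below were chosen after seeing the data.

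Leaving out 1 array at a time, Tri-DAP against control ran from -0.25 to 0.76 for let-7a, -0.76 to 0.23 for let-7b, -0.89 to 0.19 for let-7c, -0.70 to 0.41 for let-7d, -0.57 to 0.30 for let-7e, -0.68 to 0.23 for let-7f, -0.89 to -0.0061 for let-7g and -0.52 to 0.17 for let-7i. MDP against control ran from 0.29 to 1.26 for let-7a, -0.0064 to 0.41 for let-7b, -0.19 to 0.084 for let-7c, -0.045 to 0.45 for let-7d, -0.43 to 0.0070 for let-7e, -0.20 to 0.56 for let-7f, -0.39 to 0.29 for let-7g and -0.13 to 0.30 for let-7i. MDP against Tri-DAP ran from -0.042 to 1.07 for let-7a, -0.070 to 0.92 for let-7b, -0.26 to 0.81 for let-7c, -0.22 to 0.89 for let-7d, -0.47 to 0.40 for let-7e, -0.050 to 0.86 for let-7f, -0.074 to 0.81 for let-7g and -0.11 to 0.58 for let-7i.

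The likeness to the let-7 mean fell with the array mean and without normalization, to 0.615 and 0.872 for miR-744, 0.815 and 0.788 for miR-191, 0.760 and 0.917 for miR-222, 0.594 and 0.886 for miR-155, and 0.597 and 0.870 for miR-26a. The labels give groups no shared replicate numbers. Consecutive array numbers taken as sets correlated above 0.1 in 9 of 12 pairs (r from -0.12 to 0.83), among them all 4 pairs of a control and an MDP array (0.30 to 0.83). Not every pair passed and no source ties arrays to isolations, so the sets stayed out of the main comparisons. The Ct of miR-143, miR-145 and miR-214 followed these sets, and for each marker the sets did not overlap. Whether the sets mark the isolations is not known from the sources and was not tested. With a replicate block of these sets 0 members were called, the lowest member p from limma was 0.307 (let-7a, MDP against control, 0.72), and the number of all miRNAs called went from 4 to 9, 3 to 6 and 7 to 9.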
